A study of Mus musculus with 4 samples.

Results

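The expression of 35 genes that type I interferon is known to induce was followed by cell type and by treatment in tumours of the MT4788 mammary tumour line, grown orthotopically in syngeneic FVB mice. The 35 members were fixed by name (Isg15, Irf7, Stat2, Usp18, Herc6, Ifit1, Ifit2, Ifit3, Ifit3b, Ifit1bl1, Oas1a, Oas2, Oas3, Oasl1, Oasl2, Rsad2, Cmpk2, Mx1, Bst2, Isg20, Slfn1, Slfn4, Slfn5, Slfn8, Ifi204, Ifi205, Trim30a, Phf11d, Ifi44, Xaf1, Rtp4, Lgals3bp, Epsti1, Parp14 and Ifi27l2a), and all 35 were found among the 27998 features measured. The genotype is given as WT in all 4 libraries, and the tumours were taken on day 4. The control group got saline and PBS, the phenformin group saline plus phenformin, the poly I:C group that agent plus PBS, and the combination group both agents; runs of 4 values below follow this order. Poly I:C mimics viral double-stranded RNA, which Toll-like receptor 3 and cytosolic sensors detect, and the biguanide phenformin blocks mitochondrial complex I. The series asks how the pair of agents acts on neutrophils and other immune cells of the tumour. Cells were enriched for CD45 on magnetic beads, 10000 were loaded per treatment, and each treatment is 1 library; how many animals it came from is not given in the sources used here. Libraries are therefore set side by side without a test, and all intervals are 95% intervals for counting error only.

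Type I interferons are sensed by the receptor chains Ifnar1 and Ifnar2, whose kinases Jak1 and Tyk2 activate Stat2. Together with Irf9 it acts in a complex that binds the interferon-stimulated response element and switches on genes that block viral replication, amplify the signal or shut it off. Plasmacytoid dendritic cells are a classical source of type I interferon, and Irf7 is the factor that amplifies its production.

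The promoters of the 6 members described in every cell type show how differently they carry that element. RefSeq windows from 250 bases before to 50 after the start site were available for 28 of the 35 members (GRCm38.p6), and its letters GAAA, any 2 bases and again GAAA occurred on either strand in 14 of the 28 (50%), against 3.99% of all 27025 genes in the table. The letters TTCNNNGAA, those of the gamma-activated site, were in 4 of 28 (14.3%) against 9.55% of all genes. In the 250 bases before each start site, given 5′ to 3′ on the gene's own strand, capitals mark these letters or their reverse complement, with overlapping matches run together.
Isg15 (chr4:156200819-156201068, minus strand): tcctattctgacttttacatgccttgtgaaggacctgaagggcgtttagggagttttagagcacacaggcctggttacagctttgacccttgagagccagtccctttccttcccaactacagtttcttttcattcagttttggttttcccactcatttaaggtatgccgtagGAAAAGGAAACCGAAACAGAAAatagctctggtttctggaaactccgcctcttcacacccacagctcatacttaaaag
Ifit3 (chr19:34583279-34583528, plus strand): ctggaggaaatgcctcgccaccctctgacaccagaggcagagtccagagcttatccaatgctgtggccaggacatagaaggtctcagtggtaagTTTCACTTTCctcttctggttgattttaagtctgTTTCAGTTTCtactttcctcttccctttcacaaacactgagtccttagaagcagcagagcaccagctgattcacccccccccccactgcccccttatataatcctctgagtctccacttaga
Rsad2 (chr12:26456453-26456702, minus strand): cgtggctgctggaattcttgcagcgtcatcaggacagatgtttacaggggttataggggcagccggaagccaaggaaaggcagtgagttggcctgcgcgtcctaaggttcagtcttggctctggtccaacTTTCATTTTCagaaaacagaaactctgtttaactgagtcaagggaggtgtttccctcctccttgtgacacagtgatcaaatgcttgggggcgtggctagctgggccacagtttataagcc
Bst2 (chr8:71537473-71537722, minus strand): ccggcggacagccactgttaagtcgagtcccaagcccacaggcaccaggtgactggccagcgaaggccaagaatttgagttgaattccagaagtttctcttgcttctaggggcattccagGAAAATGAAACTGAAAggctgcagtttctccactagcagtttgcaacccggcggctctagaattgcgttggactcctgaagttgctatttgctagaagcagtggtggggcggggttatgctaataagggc
Stat2 (chr10:128270248-128270497, plus strand): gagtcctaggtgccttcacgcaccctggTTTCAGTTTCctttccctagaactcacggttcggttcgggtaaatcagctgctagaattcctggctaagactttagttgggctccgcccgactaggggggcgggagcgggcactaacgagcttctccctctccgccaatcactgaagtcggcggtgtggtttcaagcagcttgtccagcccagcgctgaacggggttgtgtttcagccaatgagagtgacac
Irf7 (chr7:141266425-141266674, minus strand): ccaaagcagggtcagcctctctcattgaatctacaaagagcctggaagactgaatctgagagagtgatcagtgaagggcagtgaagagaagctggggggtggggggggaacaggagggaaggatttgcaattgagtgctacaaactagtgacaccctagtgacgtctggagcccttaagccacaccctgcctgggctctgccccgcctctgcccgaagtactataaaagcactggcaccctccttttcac
Isg15 carried 3 overlapping matches that began between 78 and 66 bases before the start site, Bst2 carried 2 overlapping ones at 130 and 124 bases, Ifit3 carried 2 separate ones at 156 and 122 bases, and Rsad2 and Stat2 carried 1 each, at 120 and 222 bases. In Irf7, the member that was higher under poly I:C in the most cell types, these letters were not in the window.

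Cell types were gates on raw UMI counts: CD8 T, NK, plasmacytoid dendritic cell (pDC, Siglech), macrophage (Csf1r, Cd68 and Adgre1), monocyte (Ly6c2), B (Cd79a and Cd79b) and tumour (Krt5 and Krt14 without Ptprc), with a neutrophil gate added for comparison. The libraries kept 6095, 5453, 6619 and 8268 cells, with 57332308 to 76070132 UMIs per library and medians of 5901.5 to 8430 UMIs per cell. The 7 gates took in 63.9 to 77.7% of cells, and they overlap: 93.1 to 98% of pDC-gate cells and 25.8 to 38.3% of CD8 T-gate cells were also in the monocyte gate, and 80.8 to 90.0% of monocyte-gate cells were in some other gate. At most 21 cell barcodes were shared between any 2 libraries. The labels describe over 90% of cells as CD31-negative, EpCam-negative and CD45-positive; a UMI of Ptprc, the CD45 gene, was found in 80.8 to 86.2% of cells, one of Epcam in 10.7 to 16.9% and one of Pecam1, the CD31 gene, in 20.7 to 30.6%.

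Marker sums are given as CPM, a gene's UMIs scaled to a fixed total of the gate's UMIs. They went against the label of the B gate in every library and of the monocyte gate in both poly I:C libraries. In the B gate 8 macrophage markers summed to 2952, 2921, 7600 and 9874 CPM, above the 6 B-cell markers at 1025, 1154, 525 and 903, so it is called the Cd79 gate here. In the NK, CD8 T and pDC gates the gate's own markers led the macrophage markers in every library, but the macrophage sum was uneven across libraries: 642, 643, 2225 and 1583 CPM in CD8 T, 538, 1587, 3102 and 866 in NK, and 503, 696, 2460 and 2931 in pDC. All 8 macrophage markers had UMIs in these 4 gates. In the monocyte gate macrophage markers summed to 2526, 3234, 5029 and 4985 CPM against 4276, 3759, 3142 and 4374 for monocyte markers. Macrophage markers thus exceeded monocyte markers in both poly I:C libraries. Of monocyte-gate cells, 48.2 to 60.6% were also in the macrophage gate, so the name monocyte stands here for the Ly6c2 gate only. The tumour gate held 53.0 to 64.1 CPM of macrophage markers against 6235 to 8124 of epithelial ones. Results for the CD8 T, NK, pDC and Cd79 gates are therefore also given without cells holding a UMI of Adgre1, C1qa, C1qb or C1qc. This exclusion was chosen after the values were seen, and it was not applied to the monocyte gate.

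In the control tumour the members were not equally expressed across cell types. Their summed level was 1293 CPM in the NK gate, 2081 in CD8 T, 2505 in tumour, 2803 in Cd79, 3669 in macrophage, 4191 in monocyte and 5066 in pDC, and 12519 in the neutrophil gate. Of the 35 members, 24 were at their highest of all 8 gates in neutrophils and 5 in pDC (Bst2, Ifi44, Irf7, Mx1 and Stat2). These counts include members too low to enter a ratio in any gate: Mx1 in pDC, and Cmpk2, Ifit3b and Ifit1bl1 in neutrophils. The share of all features highest in each gate is not given, so the counts are not read as particular to the members. The sum was carried by few genes: Ifi27l2a, a small membrane protein gene, gave 52.5% of it in CD8 T cells, Bst2 gave 44.3% in pDC, and Isg15 gave 22.7% in neutrophils.

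The levels of single members put the gates in different orders. Bst2 encodes tetherin, which holds budding virus at the cell surface and is also a known pDC surface marker; it stood at 2243, 2208, 2220 and 2488 CPM in pDC, and at 391, 366, 545 and 624 in macrophages. These pDC values lie within 1.13-fold of each other. Isg15, a ubiquitin-like protein that is attached to other proteins, was at 446, 494, 449 and 439 CPM in tumour cells and at 77.9, 77, 135 and 149 in CD8 T cells, so the gate with the highest level among the 7 varied least with treatment. Rsad2, the antiviral enzyme viperin, was at 88.7, 65.1, 56.8 and 53.2 CPM in macrophages and at 8.29, 12.8, 9.78 and 8.72 in tumour cells, but at 1194, 1140, 350 and 391 in neutrophils. Ifit3, which binds viral RNA, reached 41.9, 18.3, 28.0 and 84.3 CPM in neutrophils and no more than 18.1 CPM in any other gate and library.

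**Figure D1:**
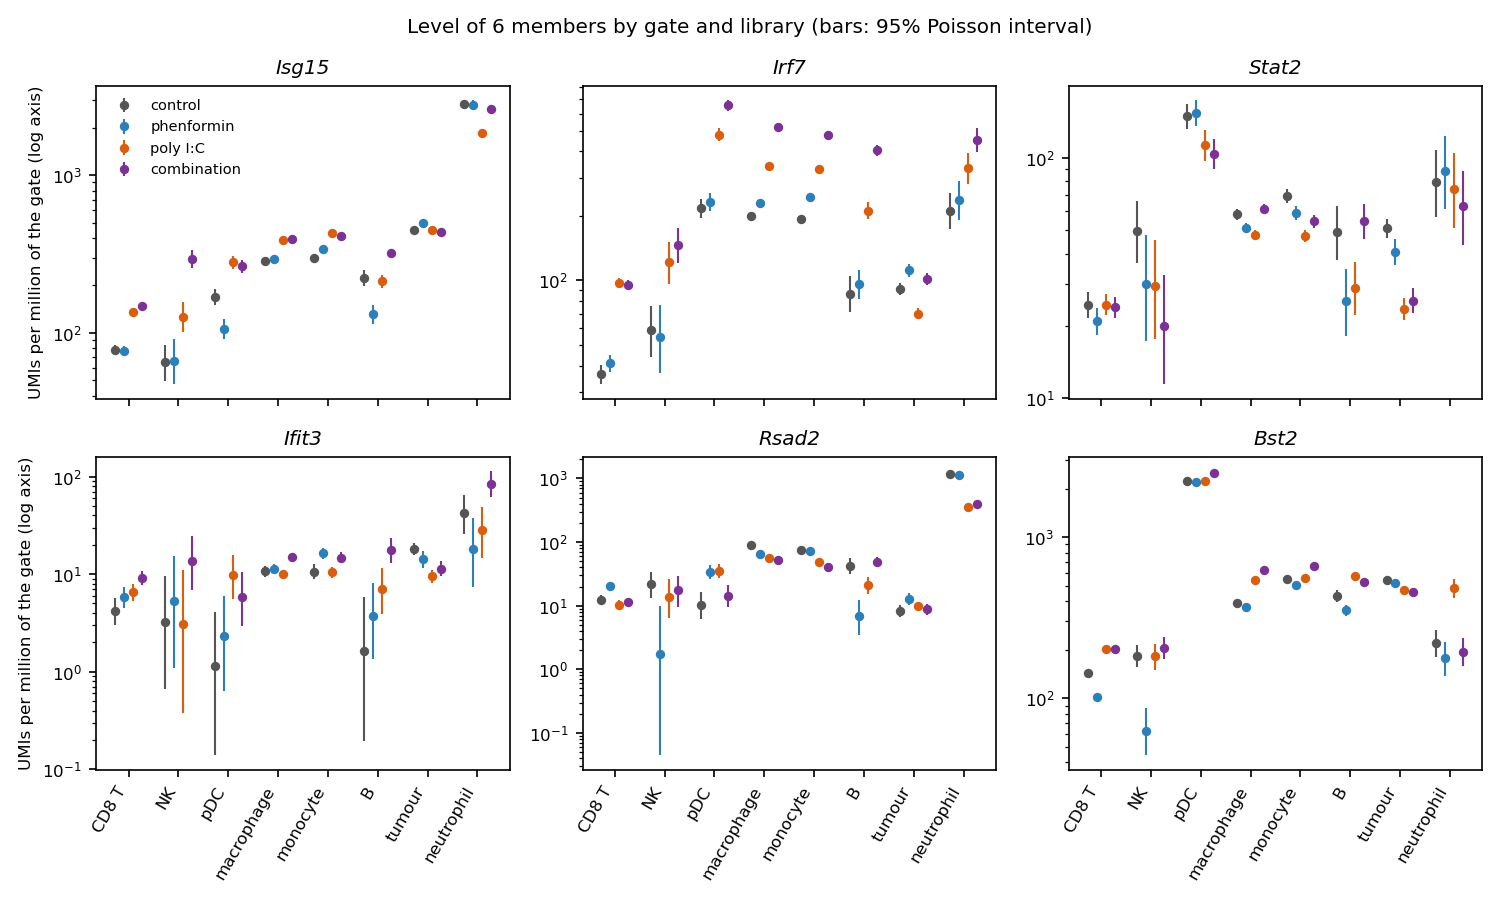
Level of 6 members (CPM of the gate's UMIs, log axis) in 8 gates and 4 libraries, 1 point per library, with exact 95% Poisson intervals. Irf7 was higher in both libraries with poly I:C than in either without it in every gate but tumour, whereas Isg15 and Rsad2 peaked in neutrophils.

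A member entered a ratio where its mean over the 4 libraries was at least 20 CPM, with at least 60 UMIs in the gate. Between 15 members (CD8 T) and 27 (neutrophil) passed, 12 passed in all 7 gates, and 7 passed in none of them (Ifit3, Ifit3b, Ifit1bl1, Oas2, Mx1, Cmpk2 and Ifi205), though Ifit3 and Oas2 passed in neutrophils. Each gate's median is of log2((CPM + 5)/(CPM + 5)), and a ratio of 1.5 or more is counted as higher or lower. The 5 comparisons share libraries, so their values are given side by side and are not independent.

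With poly I:C alone the members' medians were above 0 in the whole lymphoid and pDC gates, close to level in myeloid gates, and below 0 in tumour cells and neutrophils. Without cells that held macrophage transcripts, the lymphoid and pDC medians were 0.093 in CD8 T, -0.085 in NK, -0.11 in pDC and -0.21 in Cd79, so 3 of these 4 turned sign. In the CD8 T gate the median of 15 members was 0.48 against -0.10 for all features; 4 were higher, where 5.01% of all features were, and 0 lower, where 6.89% were. In NK the median of 16 was 0.43 against -0.12, with 7 higher (9.33% of features) and 1 lower (19%). In pDC the median of 22 was 0.45 against -0.11, with 9 higher (7.75%) and 0 lower (11%). The Cd79 gate had a median of 0.30 against -0.14 over 22 members, 8 higher (8.27%) and 3 lower (18.2%). The interval for counting error of the NK and Cd79 medians took in 0. Macrophage markers were higher in the poly I:C library than in control in all 4 of these gates.

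Macrophages and monocytes showed a mixed picture. In macrophages the median of 24 members was 0.13 against -0.08, with 4 higher (2.5% of features) and 1 lower (3.87%), and in monocytes that of 26 was 0.09 against -0.10, with 6 higher (3%) and 2 lower (5.38%). Macrophage markers were higher in both poly I:C libraries here too, at 6762, 7311, 11197 and 13922 CPM in the macrophage gate. The monocyte median took the other sign in 4 of the alternative settings, the lowest at -0.17 with cells thinned to 1500 UMIs, so no direction is read from it. In tumour cells the median of 19 members was -0.38 against -0.13, with 0 higher (1.44%) and 6 lower (14%). In neutrophils 27 members had a median of -0.69 against -0.06, with 3 higher (15.2%) and 16 lower (22%).

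**Figure D2:**
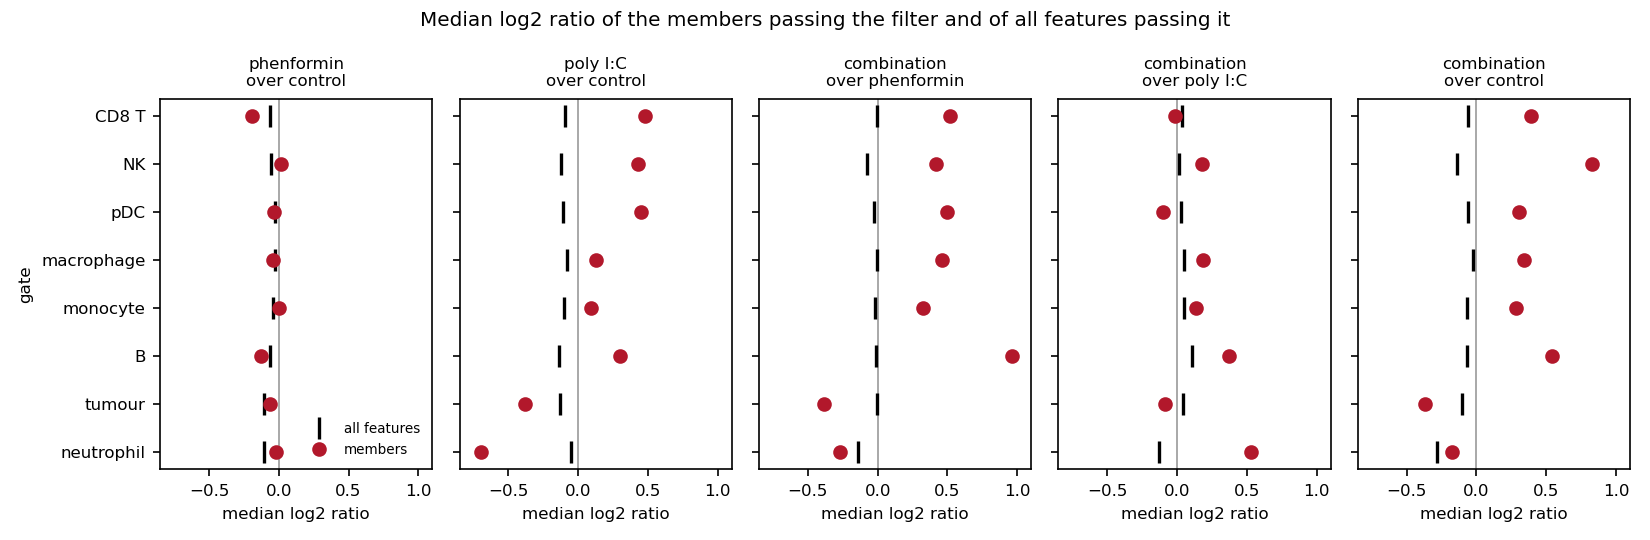
Median log2 ratio over the members that passed the filter (circles) and over all features (ticks) by gate (B is the Cd79 gate), for 5 comparisons of libraries, with 1 library per treatment. For poly I:C over control the members of the whole gates lie above all features in the CD8 T, NK, pDC and Cd79 gates and below them in tumour cells and neutrophils.

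The same contrast made on the phenformin background, combination over phenformin, had members' medians above those of all features in each of the 6 gates other than tumour and neutrophil. In the CD8 T gate it was 0.52 against -0.01, with 7 higher (2.4% of features) and 0 lower (1.17%). In macrophages it was 0.46 against -0.01, with 11 higher (3.39%) and 0 lower (3.6%), a larger count than without phenformin; whether the poly I:C difference itself changes with phenformin could not be tested. In pDC it was 0.50 against -0.03, with 11 higher (7.36%) and 3 lower (5.95%). Medians in NK, monocytes and the Cd79 gate were 0.42, 0.32 and 0.97, with 7 higher (10.6%) and 1 lower (16.5%), 6 higher (3.44%) and 3 lower (3.55%), and 15 higher (12.1%) and 0 lower (9.49%). The NK interval for counting error, -0.10 to 1.52, took in 0. Tumour cells again stood on the other side, at -0.39 against -0.00, with 0 higher (0.997%) and 6 lower (1.64%). In neutrophils the median was -0.27 against -0.14, with 6 higher (12.8%) and 6 lower (22.2%).

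**Figure D3:**
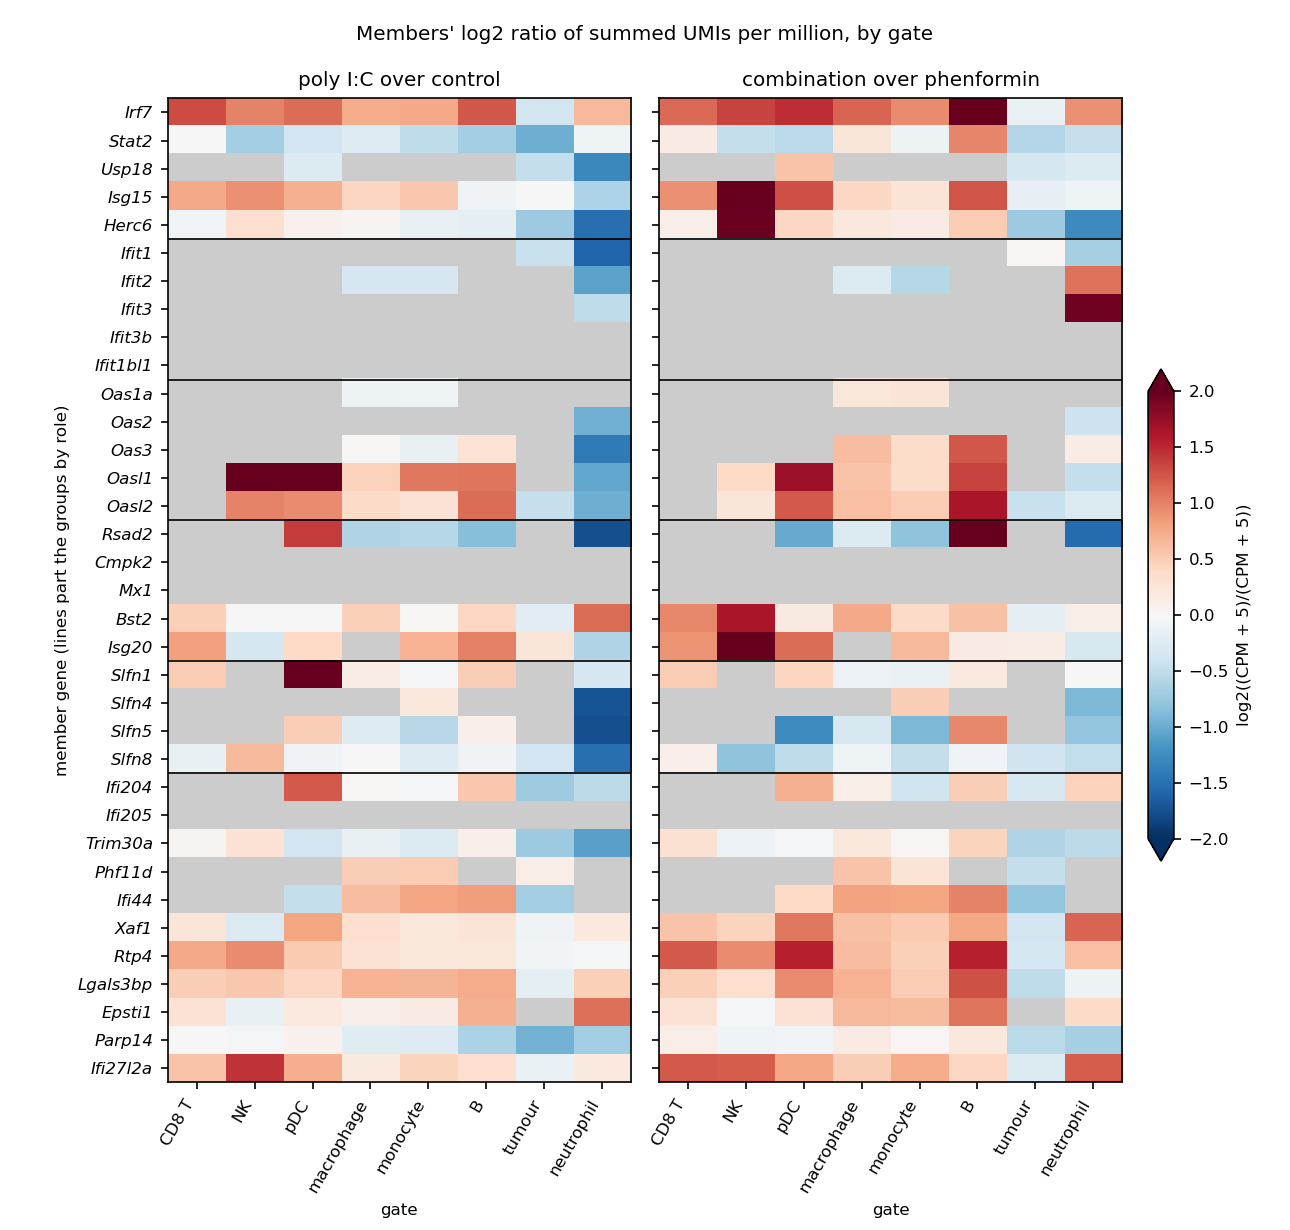
Ratio of each member by gate (colour, log2 scale) for poly I:C over control and combination over phenformin, with 1 library per treatment; grey cells did not pass the filter on low values. The Irf7 row is above 1 in every gate but tumour in both maps, and most of the tumour column is below 1.

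Among members that carry or restrain the signal, Irf7 was the most widespread. It was at 201, 230, 340 and 520 CPM in macrophages, at 194, 246, 330 and 478 in monocytes, at 217, 232, 479 and 657 in pDC and at 36.4, 41.0, 97.6 and 95.3 in CD8 T cells. Both poly I:C libraries were above both others in each of these gates. Its ratio of poly I:C over control was 2.68 (2.39 to 3.02) in CD8 T cells and 1.70 (1.64 to 1.75) in macrophages, and it was at least 1.5-fold higher in 6 of the 7 whole gates in both poly I:C contrasts. Without cells that held macrophage transcripts, the poly I:C over control ratio was 1.37 in CD8 T and 1.003 in NK, which ended the call in both, and 2.31 in pDC and 1.70 in Cd79; for combination over phenformin it was 1.78, 4.14, 3.47 and 4.06 in these gates. Tumour cells were the exception, at 91.3, 111, 69.9 and 102 CPM. Exons of Irf7 (chromosome 7, 141262706 to 141266481 on GRCm38) overlap those of Phrf1 on the opposite strand, and those of Oasl1, Usp18 and Slfn5 overlap other genes on the opposite strand. Those of Herc6, Rtp4 and Parp14 overlap gene models on the same strand (Gm45193, Gm45338 and Gm49730), so the values of all these members carry an uncertainty of assignment; how reads there were assigned is not given in the sources used here.

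Stat2, which carries the signal from the receptor to the nucleus, did not follow Irf7. Its levels were 149, 154, 113 and 104 CPM in pDC, 58.4, 51.3, 47.9 and 61.6 in macrophages and 51, 40.8, 23.6 and 25.5 in tumour cells. For combination over phenformin Stat2 was called higher in Cd79 (2.15) and lower in tumour cells (0.625). No gate had a Stat2 ratio of 1.5 or more for poly I:C over control, and NK, Cd79 and tumour gates were at 0.588, 0.585 and 0.463. Isg15 was higher by 1.74-fold (1.6 to 1.89) in CD8 T cells and was above 1 in 6 of 7 whole gates, with the NK levels at 65.0, 66.6, 126 and 294 CPM. Without macrophage-transcript cells the Isg15 ratio was 1.504 in CD8 T and 1.37 in NK, and 0.853 in pDC in place of 1.65. Usp18, which removes Isg15 from proteins and damps the receptor, passed in 2 of the 7 gates, and in pDC it was at 42.9, 23.5, 34.7 and 37.3 CPM.

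The Ifit family, which binds foreign RNA and lies as 5 members within 34550694 to 34650009 on chromosome 19, was low outside neutrophils. Outside neutrophils only Ifit2 (macrophage and monocyte) and Ifit1 (tumour) passed the filter. The CD8 T, NK, pDC and Cd79 gates thus gave no Ifit ratio. Ifit2 in macrophages had a ratio of 0.761 for poly I:C over control. Where they passed in the 7 gates, 0 Ifit members were at least 1.5-fold higher. The oligoadenylate synthetase family differed by member. Oasl1, which restrains the translation of Irf7 mRNA, passed in 5 of 7 gates. For poly I:C over control its ratio was above 1 in all 5 and at least 1.5-fold higher in 4. The same held for phenformin over control, with ratios of 1.04 to 2.39 and the same 4 gates (NK, pDC, monocyte and Cd79). The NK interval there, 0.586 to 5.99, took in 1. In pDC Oasl1 stood at 3.43, 8.22, 38.3 and 38.3 CPM, a ratio of 11.2 (4.86 to 31.6) for poly I:C over control from 6 and 63 UMIs. In NK the ratio of 8.74 rests on 7 and 43 UMIs. Without macrophage-transcript cells Oasl1 had a poly I:C over control ratio of 3.35 in pDC, 2.47 in NK and 0.355 in Cd79. For phenformin over control it was then 0.479 in NK and 0.331 in Cd79. Oas1a had poly I:C over control ratios of 0.923 to 0.935 in the 2 gates where it passed.

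Among the other antiviral effectors Rsad2 and Isg20 went apart. Rsad2 was lower under poly I:C in macrophages (ratio 0.641, 0.602 to 0.681), monocytes (0.648) and the Cd79 gate (0.498), and higher in pDC (3.43, 1.99 to 6.18), where it was at 10.3, 34.0, 35.3 and 14.4 CPM. In pDC the combination library thus lay near control while phenformin and poly I:C lay above. These pDC levels rest on few cells, with Rsad2 found in 10 of 188 in control and 18 of 164 with poly I:C. In cells thinned to 1500 UMIs the pDC ratio for poly I:C over control was 1.58. The part of macrophage RNA in the pDC value was not tested. Isg20, an exonuclease, was at 34.6, 44.3, 64.7 and 86.9 CPM in CD8 T cells, with both poly I:C libraries above both others. Its NK ratio of 13.8 (4.49 to 68.8) for combination over phenformin comes from 3 and 58 UMIs. Bst2 was not called in any of the 7 gates for poly I:C over control, with ratios from 0.863 to 1.40. For combination over phenformin it was at least 1.5-fold higher in 4 of the 7 whole gates (CD8 T, NK, macrophage and Cd79). Its ratios there ranged over the 7 gates from 0.879 to 3.27.

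Of the Slfn family, 4 neighbours on chromosome 11 between 82951349 and 83190216 that are known for restraining growth and virus translation, Slfn1 was at 5.72, 18.2, 62.7 and 26.1 CPM in pDC, a ratio of 10.96 (5.73 to 23.5) for poly I:C over control, and of 2.68 without macrophage-transcript cells. Slfn5 was at 67.6, 71.8, 44.2 and 36.3 CPM in monocytes, with both poly I:C libraries below both others.

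The remaining members included several that were higher with poly I:C in more than 1 gate. In macrophages Lgals3bp, a secreted galectin-binding protein, was at 236, 311, 387 and 509 CPM, and Ifi44 was at 39.4, 31.9, 63.3 and 59.3. The macrophage ratios for poly I:C over control were 1.64 and 1.61. In CD8 T cells Rtp4, a Golgi chaperone for receptors, was at 20.2, 14.4, 37.8 and 40.1 CPM, a ratio of 1.87 (1.59 to 2.20). Ifi27l2a in CD8 T cells stood at 1094, 1038, 1630 and 2445 CPM, so that with the combination it made up 63.9% of the members' sum. Without it, the CD8 T sums were 988, 897, 1371 and 1380 CPM, and the step from poly I:C to combination was seen in Ifi27l2a rather than in the sum of the others.

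The exclusion of cells with macrophage transcripts moved medians in the CD8 T, NK, pDC and Cd79 gates, by unequal amounts. This exclusion left 521, 506, 762 and 824 cells in the CD8 T gate, and there the median for poly I:C over control was 0.09 in place of 0.48, while that for combination over phenformin was 0.71 in place of 0.52. In pDC the medians became -0.11 and 0.55, in NK -0.085 and 1.23, and in the Cd79 gate -0.21 and 0.42. For combination over control they became 0.11 in CD8 T cells, 0.26 in NK, -0.21 in pDC and 0.13 in Cd79. Single members differed in how much they moved. In CD8 T cells Isg20 stayed at a ratio of 1.94 and Rtp4 at 1.62 for poly I:C over control, Irf7 went from 2.68 to 1.37 and Bst2 from 1.40 to 0.898. In pDC Irf7 kept a ratio of 2.31, with 232, 211, 535 and 733 CPM. The part that macrophage RNA or mixed droplets had in the whole-gate values was not tested.

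**Figure D4:**
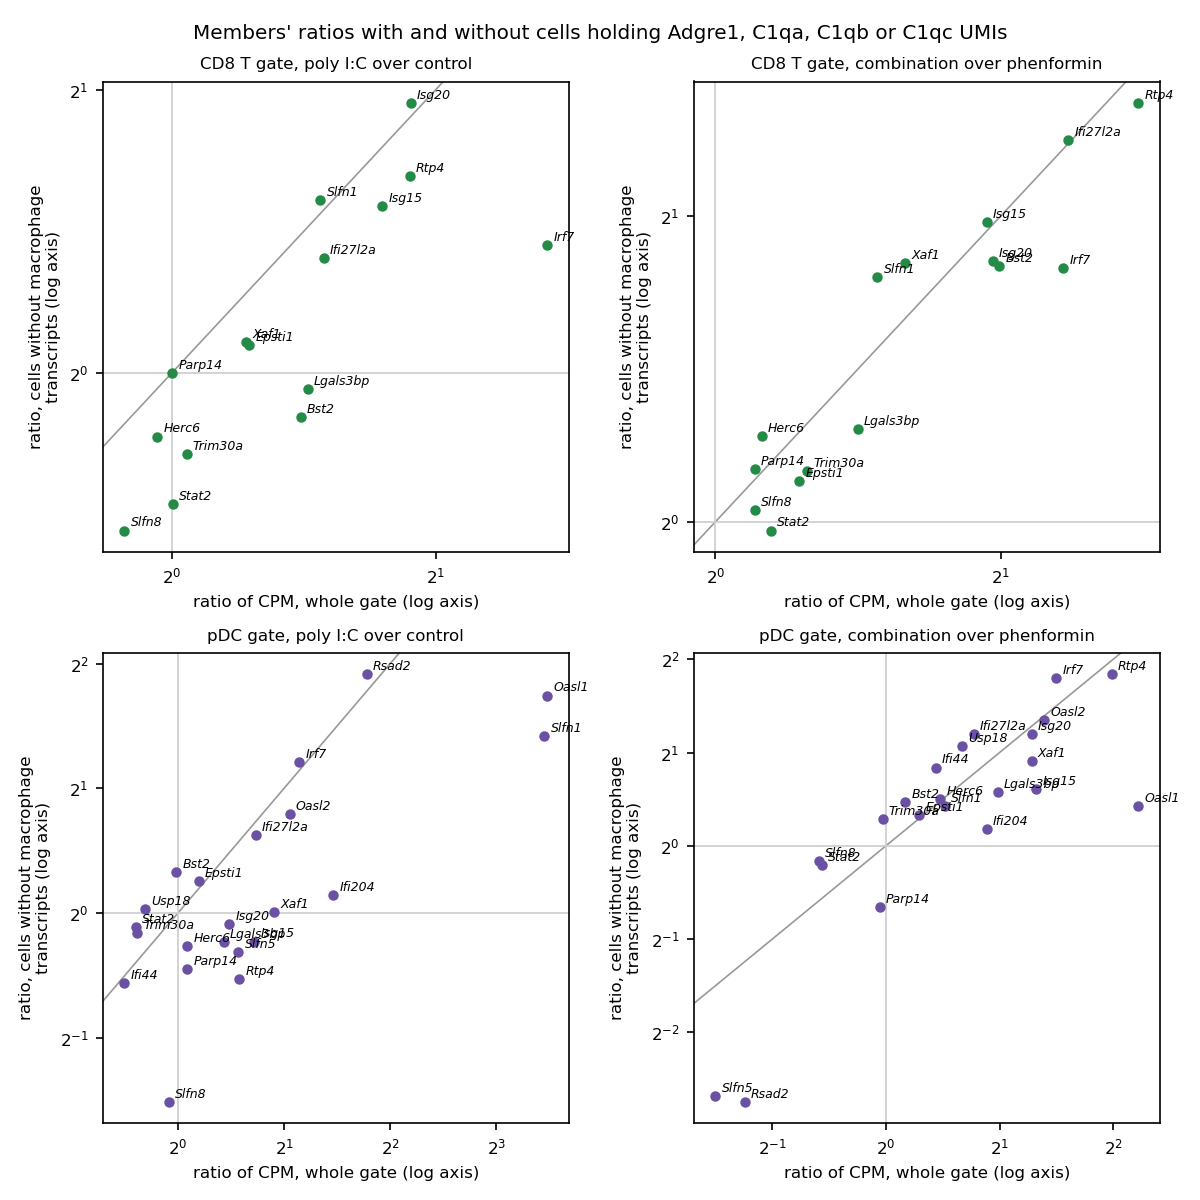
Ratios of members of the CD8 T and pDC gates in all cells of the gate (horizontal log axis) against those in cells without macrophage transcripts (vertical log axis), 1 point per member, for poly I:C over control and combination over phenformin. In the CD8 T gate Irf7 moves from 2.68 to 1.37 for poly I:C over control, and in pDC from 2.20 to 2.31.

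In tumour cells most members were lower with poly I:C than without it. Parp14, an ADP-ribosyltransferase, was at 81.2, 53.1, 39.7 and 34.9 CPM, Herc6, the mouse ligase for Isg15, at 51.3, 40.5, 28.9 and 22.6, and Trim30a at 43.6, 34.3, 24.3 and 20.9. Both poly I:C libraries lay below both others for each of these. The ratios for poly I:C over control were 0.489 (0.440 to 0.543) for Parp14 and 0.463 (0.404 to 0.529) for Stat2. Isg20 was the highest at 1.19. Macrophage markers were near level in this gate, at 53.0, 53.9, 60.3 and 64.1 CPM. All features of this gate also had a negative median, -0.13, and with edgeR's TMM scaling the members' median was -0.18 in place of -0.38.

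Neutrophils, with 122 to 197 cells and median depths of 1957 to 2259 UMIs, held the highest summed level in every library (12519, 12464, 8424 and 12462 CPM). Their sum was lowest with poly I:C alone. Slfn4 was at 1148, 1325, 343 and 711 CPM and Ifit1 at 311, 363, 100.4 and 228, while Epsti1 was at 93.7, 99.1, 208 and 130. For combination over poly I:C the median was 0.53 against -0.13 for all features, with 13 members higher (13% of features) and 2 lower (29.9%). The gate's own markers summed to 30980, 49412, 55973 and 119241 CPM, so these levels share a total that such markers fill unequally.

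Phenformin alone was set against control. Medians were -0.19 in CD8 T cells against -0.06 for all features, 0.02 in NK, -0.04 in pDC, -0.04 in macrophages, 0.00 in monocytes, -0.13 in the Cd79 gate, -0.06 in tumour cells and -0.02 in neutrophils. Without macrophage-transcript cells the medians were lower, at -0.31 in CD8 T, -0.25 in NK, -0.54 in pDC and -0.22 in Cd79. In macrophages 0 of 24 members were higher (0.438% of features) and 0 lower (0.42%), and in CD8 T cells 0 of 15 were higher (0.811%) and 0 lower (0.956%). The monocyte gate had 1 higher (0.706%), Oasl1 at 1.55, and 0 lower (1.09%). The tumour gate had 1 higher (0.572%) and 1 lower (1.59%). In the small gates the counts were 4 higher (6.33%) and 4 lower (10.2%) in NK, 4 (3.04%) and 6 (5.36%) in pDC, 1 (3.72%) and 5 (6.97%) in Cd79, and 0 (6.12%) and 1 (18.4%) in neutrophils. Rsad2 in macrophages had a ratio of 0.733 and Lgals3bp one of 1.32. In tumour cells Ifi27l2a was at 194, 321, 176 and 263 CPM, so that both phenformin libraries were above both others.

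With poly I:C present, the library with phenformin had members' medians above those of all features in 4 of the 7 gates. Combination over poly I:C was 0.18 in NK, 0.18 in macrophages, 0.14 in monocytes and 0.37 in the Cd79 gate, against 0.02, 0.05, 0.05 and 0.11 for all features. It was -0.01 in CD8 T cells, -0.10 in pDC and -0.09 in tumour cells. Intervals for counting error took in 0 in NK (-0.23 to 0.60), CD8 T (-0.11 to 0.11) and pDC (-0.46 to 0.21). In macrophages 19 of 24 ratios were above 1, but 1 member was higher (0.821% of features) and 0 lower (1.22%). That member was Irf7, at 1.53 (1.49 to 1.56). Monocytes had 0 higher (1.43%) and 0 lower (1.85%), with Irf7 at 1.45, and CD8 T cells had 0 higher (0.559%) and 0 lower (2.38%), with Ifi27l2a at 1.499 (1.48 to 1.52). Tumour cells also had 0 higher (0.425%) and 0 lower (0.351%), with Irf7 at 1.45 (1.34 to 1.58). In NK there were 4 higher (10.5%) and 1 lower (12.9%), in pDC 1 (4.04%) and 5 (5.35%), and in Cd79 7 (9.92%) and 1 (6.34%).

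Set directly against control, the combination had whole-gate medians of 0.39 in CD8 T cells, 0.83 in NK, 0.31 in pDC, 0.34 in macrophages, 0.28 in monocytes, 0.54 in the Cd79 gate and -0.37 in tumour cells. Without macrophage-transcript cells the values were -0.21 in pDC, 0.11 in CD8 T, 0.26 in NK and 0.13 in Cd79. The Cd79 value was -0.19 in exclusive gates. Members higher and lower numbered 8 (3.5% of features) and 1 (4.33%) in macrophages, 8 (2.88%) and 2 (4.09%) in monocytes, 5 (3.3%) and 0 (4.18%) in CD8 T cells, and 0 (1.81%) and 8 (9.69%) in tumour cells. They numbered 10 (8.01%) and 1 (19.8%) in NK, 9 (6.95%) and 2 (9.75%) in pDC, 11 (11.6%) and 0 (13.8%) in Cd79, and 5 (9.6%) and 9 (31.3%) in neutrophils, whose median was -0.18. In tumour cells the members past the fold were thus all lower, as for poly I:C alone.

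The number of members detected per cell was also compared, in whole gates only. Macrophage markers were higher with poly I:C in the CD8 T and pDC gates, and their part in the shares below was not tested. After each cell was thinned to 1500 UMIs, 5 or more members were detected in 29.6, 28.2, 39.9 and 50.2% of macrophage-gate cells, and in 25.4, 18.1, 36.0 and 39.5% of pDC-gate cells. In CD8 T cells the shares were 6.35, 4.86, 8.58 and 10.8%, and in tumour cells 15.9, 16.9, 13.3 and 8.63%. Before thinning they were 91.7, 93.3, 96.9 and 97.1% in macrophages and 60.4, 60.04, 62.9 and 66.5% in CD8 T cells, at unequal depths. Thinning left out 7 to 17 macrophages and 9 to 15 CD8 T cells per library as too shallow. Irf7 itself was found in 24.3, 25.8, 40.2 and 51% of thinned macrophages. No gate is known to lack these genes, so no background share from free RNA could be set beside them.

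**Figure D5:**
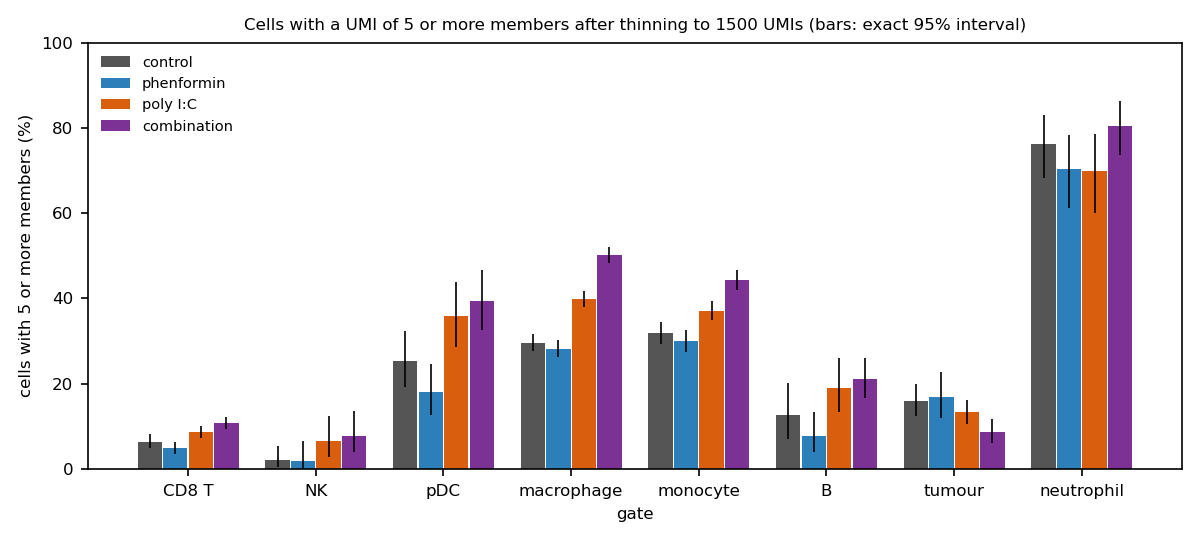
Percent of cells with 5 or more members detected after thinning to 1500 UMIs per cell, by whole gate and library, 1 library per treatment, with exact 95% binomial intervals for counting error. Macrophages reach 39.9 and 50.2% with poly I:C and the combination, and 29.6 and 28.2% without poly I:C, and tumour cells are lowest with the combination, at 8.63%.

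RNA of the type I interferons themselves was near the detection limit on day 4. Over all cells Ifnb1 had 4, 3, 1 and 0 UMIs, a depth at which no difference is detectable, and Ifng, the type II interferon, had 793, 1188, 1177 and 1269. Among 78 further genes of the pathway, 49 passed in macrophages, with 0 higher under poly I:C (2.5% of all features), and 2 lower (3.87%), namely the receptor chain Ifnar1 (0.636) and the kinase Jak2 (0.642). The whole CD8 T gate had 3 of 43 higher (5.01% of features) and 2 lower (6.89%): the sensor Zbp1 (1.52), the antiviral membrane protein Ifitm3 (1.94) and the GTPase Gbp2 (1.65) higher, and Jak2 (0.627) and Helz2 (0.583) lower. The whole pDC gate had 4 of 43 higher (7.75%) and 1 lower (11%), with Zbp1 (1.57), Irf5 (1.55), Samhd1 and Ifitm3 (2.74) higher and Parp9 lower. The shares higher, 6.98% in CD8 T and 9.3% in pDC, were near those of all features. So was the share lower in macrophages, at 4.08%. Both the whole CD8 T and pDC gates held more macrophage-marker RNA with poly I:C, and its part in these values was not tested. In tumour cells 0 of 33 were higher (1.44%) and 9 lower, or 27.3% against 14% of all features, among them the transcription factor subunit Irf9 (0.659) and the ubiquitin ligase Dtx3l (0.394). In neutrophils 2 of 44 were higher (15.2% of features) and 23 lower, or 52.3% against 22%.

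Members with the response-element letters in their promoter window had lower medians for poly I:C over control than those without. In macrophages 9 members with them had a median of -0.10 for poly I:C over control, and 11 without them 0.38. The corresponding medians were 0.05 (5 members) and 0.49 (7) in CD8 T cells, -0.01 (7) and 0.60 (10) in pDC, and -0.42 (6) and -0.28 (8) in tumour cells. All are whole-gate values, and the part of macrophage RNA in the CD8 T and pDC splits was not tested. The members without the letters had the higher median in all 8 gates for poly I:C over control, a description of overlapping gates and of 2 libraries. For combination over phenformin this held in 7 of 8 gates, with tumour cells the other way (-0.29 with the letters, -0.46 without). For combination over poly I:C it held in 4 of 8. The same order was seen for phenformin over control in 7 of 8 gates and for combination over control in 8 of 8. It was thus not confined to contrasts that add poly I:C.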

How the data were processed

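The authors deposited unnormalized UMI counts by gene and barcode for 4 libraries, made from MT4788 tumours with Cell Ranger 3.1.0 on builds mm10 and GRCm38 per the submitters' processing notes; the annotation release is not given in the sources used here. The cell filter asked for 200 genes or more and a mitochondrial share below 20% (6095, 5453, 6619 and 8268 cells passed), and no doublet caller was run. Counts were summed per gate and library and scaled to CPM, with exact Poisson intervals; ratios carry the exact interval conditional on both counts. Depth per gate sets the precision, and a floor of 3 counts stands for 0. With 1 library per treatment no test was made. The members, lists, gates and role groups were chosen with earlier results of these data known. Named in each gate were the 4 highest and 4 lowest members for poly I:C over control, those at the ends of the other comparisons, and Isg15, Irf7, Stat2, Ifit3, Rsad2 and Bst2; of these the text gives the ones its results turn on. Positions are from GENCODE vM21 and promoters from RefSeq, each matched by symbol or ID. Alternatives were stricter gates, exclusive gates, other cell and feature filters, TMM scaling (edgeR 4.0.16, R 4.3.3), means over cells, thinning to 1500 UMIs, a pseudocount of 1 CPM, a fold of 2 and leaving out the deepest 5% of cells. Python 3.11.15, numpy 2.4.6, scipy 1.17.1 and pandas 2.3.3 were used, and the code was tested on simulated data.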

Additional observations from a re-analysis of the deposited data

Results flagged for a closer look

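The members' medians lay on opposite sides of 0 in different gates of the same libraries, with the interval for counting error clear of 0 on each side. The difference between gates was not tested, since each treatment is 1 library. For poly I:C over control the medians were 0.48 in CD8 T cells, 0.45 in pDC, 0.13 in macrophages and 0.09 in monocytes, against -0.38 in tumour cells and -0.69 in neutrophils. No direction is read from the monocyte value, which took the other sign in 4 alternatives, down to -0.17. Without cells holding macrophage transcripts the CD8 T value was 0.09 and the pDC value -0.11. For combination over phenformin they were 0.52 in CD8 T cells, 0.50 in pDC, 0.46 in macrophages, 0.32 in monocytes and 0.97 in the Cd79 gate, against -0.39 in tumour cells. For combination over control they were 0.39 in CD8 T cells, 0.83 in NK, 0.31 in pDC, 0.34 in macrophages, 0.28 in monocytes and 0.54 in the Cd79 gate, against -0.37 in tumour cells. Here, without cells holding macrophage transcripts, the values were 0.11 in CD8 T, 0.26 in NK, -0.21 in pDC and 0.13 in Cd79. The Cd79 value was -0.19 in exclusive gates. Macrophage markers were higher in the poly I:C libraries of the CD8 T, pDC and Cd79 gates and near level in tumour cells, and their part in this difference was not tested.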

How the results depend on the processing

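No paired analysis was possible because each treatment is 1 library and no replicate numbers exist. Of the members' medians, 40 of 40 moved by less than their counting interval with stricter gates, with a pseudocount of 1 CPM and with filters of 500 genes and 10% mitochondrial UMIs, as did 5 of 5 in the monocyte gate without lymphoid and pDC cells, an alternative also chosen after seeing the data. CD8 T, macrophage and tumour medians for poly I:C over control and for combination over phenformin kept their sign in every alternative run. The sign turned for medians clear of 0 in pDC, monocytes and the Cd79 gate, with the values below, and for poly I:C over control also in NK (-0.085 without macrophage-transcript cells); the cause was not tested. Exclusive gates were not used for pDC, with 1 cell left in a library. Depth limits the NK, Cd79, pDC and neutrophil gates, whose intervals are wide. Counts of higher and lower members below lack the share of all features past the fold in the same setting. They show only how far the counts depend on the setting, and are not read as results about the members. This holds above all without the filter on low values. Thinning cells to 1500 UMIs gave medians for poly I:C over control of 0.25 in CD8 T, -0.17 in monocyte, 0.85 in Cd79 and -0.20 in tumour. After thinning, medians were -0.032 in CD8 T for phenformin over control, 0.33 in CD8 T, 0.34 in macrophage, 0.22 in monocyte, 0.46 in Cd79 and -0.64 in neutrophil for combination over phenformin, 0.15 in CD8 T and -0.23 in Cd79 for combination over poly I:C and 0.21 in Cd79 for combination over control. In thinned cells, higher members numbered 1 in CD8 T, 2 in NK, 2 in pDC and 5 in Cd79 and lower members numbered 0 in NK, 1 in pDC, 7 in monocyte and 1 in Cd79 with poly I:C alone. Exclusive gates gave medians for poly I:C over control of 0.31 in CD8 T, -0.030 in monocyte and -0.78 in Cd79. Still in exclusive gates, medians were 0.42 in macrophage, 0.21 in monocyte and 0.38 in Cd79 for combination over phenformin, 0.25 in macrophage and 0.28 in monocyte for combination over poly I:C, 0.27 in macrophage and -0.19 in Cd79 for combination over control and -0.78 in Cd79 for phenformin over control. Across exclusive gates, higher members numbered 2 in NK and 4 in Cd79 and lower members numbered 4 in monocyte and 5 in Cd79 with poly I:C alone. Means over cells gave medians for poly I:C over control of 0.17 in CD8 T, 0.054 in macrophage and -0.072 in monocyte. With such means, medians were 0.41 in CD8 T, 0.38 in macrophage and 0.44 in Cd79 for combination over phenformin and 0.23 in CD8 T and 0.17 in monocyte for combination over control. By these means, lower members numbered 0 in NK and 1 in pDC with poly I:C alone. Dropping the filter on low values gave medians for poly I:C over control of 0.32 in CD8 T, -0.019 in monocyte and -0.24 in tumour. Unfiltered, medians were 0.39 in CD8 T and 0.28 in macrophage for combination over phenformin and 0.15 in macrophage and 0.041 in monocyte for combination over control. Among unfiltered genes, higher members numbered 13 in CD8 T, 16 in NK, 18 in pDC, 13 in Cd79, 1 in tumour and 6 in neutrophil and lower members numbered 2 in CD8 T, 5 in NK, 2 in macrophage, 4 in monocyte, 6 in Cd79 and 15 in tumour with poly I:C alone. Leaving out the 5% of cells with most UMIs gave medians for poly I:C over control of 0.25 in CD8 T. Without these deep cells, medians were 0.42 in macrophage and 0.24 in monocyte for combination over phenformin. Among the shallower cells, higher members numbered 3 in NK and lower members numbered 0 in NK with poly I:C alone. Leaving out cells with macrophage transcripts, as chosen after seeing the data, gave medians for poly I:C over control of 0.093 in CD8 T, -0.11 in pDC and -0.21 in Cd79. In these cells, medians were 0.11 in CD8 T, -0.21 in pDC and 0.13 in Cd79 for combination over control, -0.54 in pDC for phenformin over control and 0.42 in Cd79 for combination over phenformin. Among the cells left, higher members numbered 0 in NK, 4 in pDC and 4 in Cd79 and lower members numbered 1 in pDC with poly I:C alone. TMM scaling gave medians for poly I:C over control of 0.21 in macrophage, 0.22 in monocyte and -0.18 in tumour. Under this scaling, medians were 0.41 in macrophage for combination over phenformin and 0.11 in macrophage for combination over poly I:C. With TMM, higher members numbered 7 in CD8 T and lower members numbered 0 in macrophage, 0 in monocyte and 1 in Cd79 with poly I:C alone. At a fold of 2, higher members numbered 1 in CD8 T, 0 in macrophage, 1 in monocyte and 4 in Cd79 and lower members numbered 0 in NK, 0 in macrophage, 0 in monocyte, 1 in Cd79 and 2 in tumour with poly I:C alone. In stricter gates, lower members numbered 2 in NK with poly I:C alone.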
